A study of Mus musculus with 4 samples.

Results

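The constitutive proteasome genes are those whose annotated symbol begins with Psma, Psmb, Psmc, Psmd, Psme, Psmf or Psmg followed by a number, without the immunoproteasome subunits Psmb8, Psmb9 and Psmb10. The array carried 63 probes for 42 such genes, of 16593 genes with a symbol on it. The rule uses symbols and no measured value, but it was set with earlier results of these data known. Of the 42 genes, 40 encode subunits, activators or assembly chaperones of the proteasome, and 2 (Psmc3ip and Psme3ip1) carry the name of a proteasome protein that their product binds. Transcripts were measured in spleen RNA of 4 female C57BL/6N mice, 2 wild type (WT) and 2 knockout (KO), with 1 Illumina MouseRef-8 v2.0 bead array per sample. The KO mice were homozygous for a germline deletion of the first exon of Snd1. The methods give an age of 8 to 12 weeks for the spleen RNA, and the paper's legend for the array data gives 8 weeks. Per the methods, the deletion was made with a Cre driven by a ubiquitous promoter in a line from 129/Sv embryonic stem cells, which was then backcrossed to C57BL/6N. The animals were littermates from heterozygous breeding pairs, part of each spleen was used, and the labels name no treatment. The comparison asked whether loss of Snd1, an RNA-binding protein described as a transcriptional coactivator, changed the levels of the transcripts of the proteasome.

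The proteasome degrades proteins that carry ubiquitin chains. Its barrel-shaped core is built of a pair of alpha rings, which form the gate, around a pair of beta rings, which hold the proteolytic sites. A regulatory particle caps the core. Its base holds a ring of ATPases that unfold the substrate, and its lid holds the enzyme that removes the ubiquitin chain. Activators such as PA28 and PA200 can take the place of the regulatory particle and open the gate without ATP. In immune cells such as those of the spleen, interferon induces PA28 and the immunoproteasome subunits, which shape the peptides shown on MHC class I.

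The arrays gave similar signal, with 12396 to 12908 of 25697 probes above background and median deposited signals of 112 to 114. A probe counted as above background, or detected, at a detection p under 0.05, and it was tested when detected on both arrays of a group. Snd1 read 6.71 and 7.09 in WT and 4.45 and 4.58 in KO (normalized log2 intensity) and was above background on neither KO array, a level at least 3.87-fold below that of WT (adjusted p = 0.0869, limma). The B cell and T cell markers that the array holds, 3 and 4 genes, were detected on every array. Some genes of other tissues, and of mesothelium, stood out on the KO arrays. Of 10 exocrine pancreas genes, 9 were detected on KO replicate 1 and 2 to 3 on the other arrays. Of 6 liver genes, 5 were detected on each KO array and 1, Serpina1b, on each WT array. The liver gene Alb was detected on no array. The paper reports Serpina family genes as higher in KO spleen. The 5 adipocyte genes gave a summed intensity of 1040 and 940 in WT and 1700 and 2410 in KO, and only Lpl among them was detected in WT. Lpl read 10.71 and 10.62 in KO, and Adipoq read 5.18 on KO replicate 1 and 9.69 on KO replicate 2. Cidec was detected on KO replicate 2 alone, and Fabp4 and Plin1 on no array. The 4 mesothelium genes, 3 of them detected on every array, gave 395 and 453 in WT and 984 and 1080 in KO. Their median difference was 2.14 over the 3 tested.

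No proteasome gene passed the threshold between KO and WT. Of the 42 genes, 38 were tested and 37 of these were above background on all 4 arrays. At an adjusted p under 0.05 (limma), 0 of the 38 passed, where 0.0229% of all 8716 genes tested and 0.016% of all 12493 probes tested did. At an unadjusted p under 0.05, Psme2 and Psmd11 were lower in KO and 0 genes were higher, beside 2.51% of all genes lower and 3.49% higher. The unmoderated 2-sample test also called 0 members at the adjusted threshold, with 2 lower and 1 higher at an unadjusted p under 0.05. The count of lower genes at an unadjusted p under 0.05 was 4 without WT replicate 2, 3 without KO replicate 2 and 1 without WT replicate 1 or without KO replicate 1. Because the samples were bulk tissue, fewer cells of a type and less RNA per cell cannot be told apart in any of these values.

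The differences were small beside the spread of the arrays. The median KO minus WT difference over the 38 genes was -0.022 on the log2 scale, against 0.004 over all genes tested. The per-array median of the members varied within a group with an SD of 0.109, which is more than that difference. Of the 38 genes, 25 had a lower mean in KO, where 49.3% of all genes did. With each array scaled to one median in place of quantile normalization, 17 were lower and 21 higher, and without KO replicate 2 15 were lower and 23 higher. The mean difference was within 1.2-fold for 30 of the 38 genes, against 73.4% of all genes, and the 95% interval lay wholly within 1.5-fold for 21, against 42.2%. For the other 17 genes a change of 1.5-fold was not excluded in at least 1 direction. The WT and KO values did not overlap for 8 genes, 5 lower and 3 higher (21.1%), where 17.6% of all genes lay apart in the lower and 20.6% in the higher direction, 38.2% together.

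**Figure D1:**
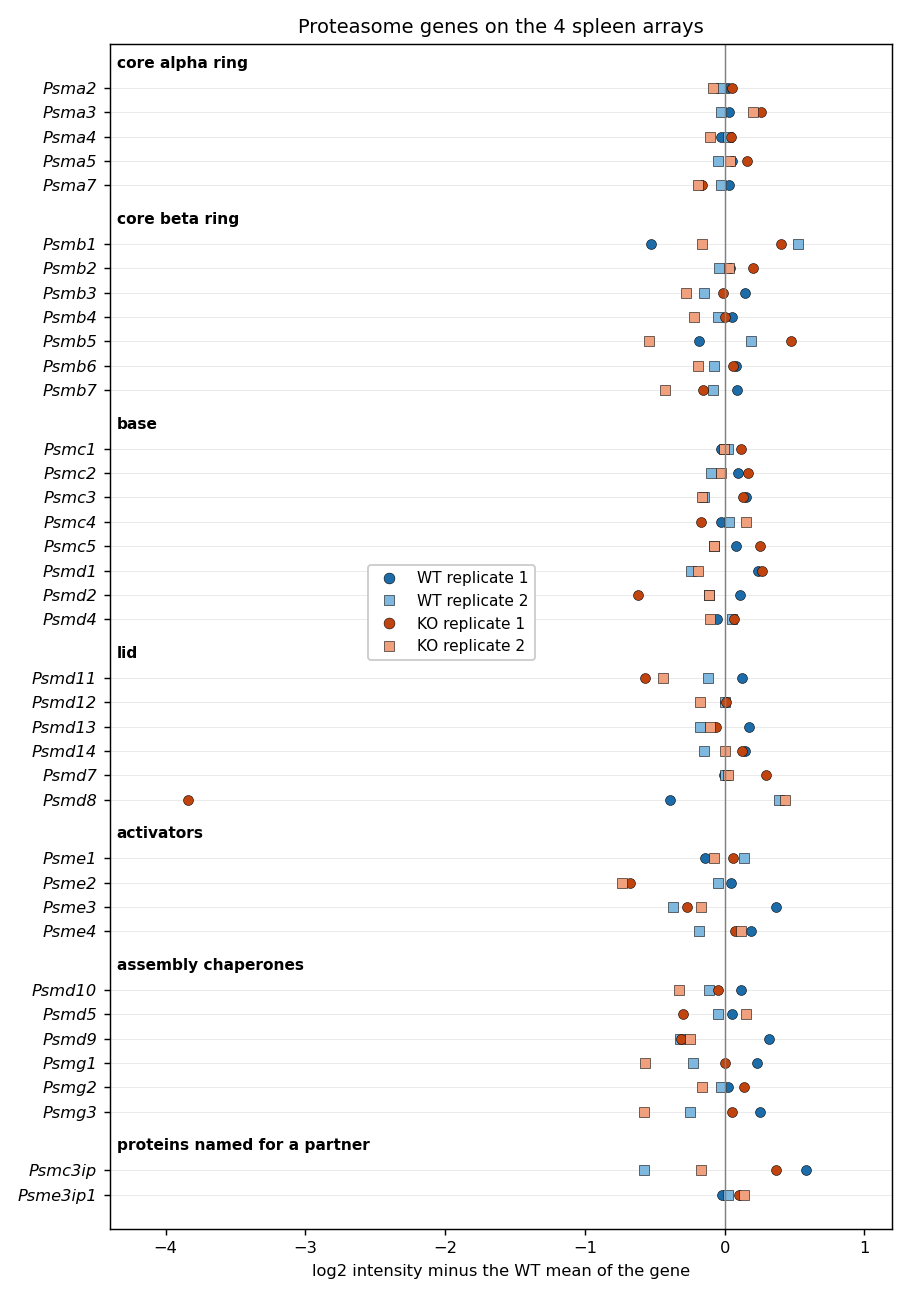
Normalized log2 intensity of each tested proteasome gene on each array, as the difference from the WT mean of that gene, with genes grouped by role. Most genes lie close to 0 on all 4 arrays, Psme2 and Psmd11 are lower on both KO arrays, and Psmd8 is low on KO replicate 1 alone (6.20).

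The alpha ring gave the tightest values. Its subunits build the outer rings of the core and control entry through the gate. Of 7 genes on the array 5 were tested, with a median within-group SD of 0.07 and a median difference of -0.012. Psma3 read 11.69 and 11.63 in WT and 11.92 and 11.86 in KO, the largest difference of the ring (0.23 ± 0.14, log2, SE, n = 2 per group). Both KO values lay above both WT values, with an adjusted p of 0.771 (limma). Psma7 read 11.20 and 11.14 in WT and 11.01 and 10.98 in KO, a difference of -0.18 ± 0.14 (adjusted p = 0.807, limma). Its groups did not overlap, and a second Psma7 probe gave -0.18 with overlapping groups. Psma2 was nearly level, at 12.48 and 12.43 in WT and 12.51 and 12.37 in KO, with a 95% interval of the difference from -0.38 to 0.36. Psma4 (-0.03) and Psma5 (0.10) lay between. The single probes of Psma1 and Psma6 were detected on no array, as was the second probe of Psma3, so these probes gave no level.

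In the beta ring the catalytic subunits differed in how well they were measured. The proteolytic sites lie in Psmb5, which cuts after hydrophobic residues, Psmb6, which cuts after acidic residues, and Psmb7, which cuts after basic residues. Psmb7 read 10.42 and 10.25 in WT and 10.18 and 9.91 in KO, the largest difference of the ring at -0.29 ± 0.17 (log2, SE, n = 2 per group, adjusted p = 0.771, limma). The KO values lay below the WT values. A second Psmb7 probe gave -0.39, also with groups that did not overlap, while another, dimmer one gave 0.02 with overlapping groups. Psmb6 read 10.35 and 10.19 in WT and 10.33 and 10.08 in KO, so that its groups overlapped. Psmb5 read 7.76 and 8.13 in WT and 8.42 and 7.40 in KO. KO replicates 1 and 2 thus held the highest and the lowest value of Psmb5, and the mean difference of -0.03 had a 95% interval from -0.97 to 0.92. Leaving out KO replicate 2 gave Psmb5 a difference of 0.48, and leaving out KO replicate 1 gave -0.54.

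The other beta subunits, Psmb1 to Psmb4, complete the ring and carry no proteolytic site. Psmb1 read 8.63 and 9.68 in WT and 9.56 and 8.99 in KO. Its WT arrays lay further apart (SD 0.74) than those of any other tested core gene, and its groups overlapped. Psmb3 read 11.39 and 11.10 in WT and 11.23 and 10.97 in KO, a difference of -0.15. Psmb2 differed in sign between its probes, at 0.11 for the brighter and -0.21 for the dimmer, whose groups did not overlap, and neither passed. Psmb4 was at -0.11. Over the 7 genes of the beta ring the median difference was -0.066 and the median within-group SD 0.16.

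The base had the smallest median absolute difference of the 6 classes, at 0.049 on the log2 scale. It joins the ATPases Psmc1 to Psmc6 to the large scaffold subunits Psmd1 and Psmd2 and to the ubiquitin receptor Psmd4. Of 9 genes 8 were tested, 4 higher and 4 lower, and their median difference was 0.014. Psmc4 read 11.08 and 11.14 in WT and 10.94 and 11.26 in KO, and both WT values lay between the KO values. Psmc5 read 9.85 and 9.69 in WT and 10.02 and 9.69 in KO, a difference of 0.08, while its second probe gave -0.08. The other ATPases Psmc1, Psmc2 and Psmc3 had differences of 0.06, 0.07 and -0.02. Psmc6 was detected on no array. Psmd2, which also receives ubiquitin shuttle proteins, had the largest difference of the base at -0.37 ± 0.22 (log2, SE, n = 2 per group, adjusted p = 0.771, limma). It read 6.41 and 6.19 in WT and 5.68 and 6.19 in KO, so that only KO replicate 1 stood clearly lower and KO replicate 2 was level with WT replicate 2. Without KO replicate 1 the difference of Psmd2 was -0.12. Psmd1 (0.04) and Psmd4 (-0.02) had overlapping groups.

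The lid held the member with the second smallest p and the one with the widest spread. Psmd11, a scaffold subunit through which the lid binds the rest of the particle, read 7.20 and 6.96 in WT and 6.51 and 6.64 in KO. The KO values lay below both WT values, 1.42-fold lower in the mean (-0.50 ± 0.16, log2, SE, n = 2 per group), with a 95% interval from -0.92 to -0.09, an unadjusted p of 0.0265 and an adjusted p of 0.771 (limma). Leaving out each array in turn kept the difference between -0.62 and -0.38. The other 2 Psmd11 probes were detected on 1 array and on none, so the value rests on 1 probe. Without background correction, as also in the deposited value table, it was -0.29.

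Psmd8, whose counterpart in budding yeast is the last subunit to join the lid, read 9.65 and 10.43 in WT and 6.20 and 10.47 in KO. KO replicate 1 alone was low and KO replicate 2 lay at the top of the 4 arrays. The deposited signals of Psmd8 were 874 and 1427.8 in WT and 157 and 1569.8 in KO, still above background on every array. The gap of 3.46 between the lowest array and the next was reached or passed by 3 of the 8716 genes tested, Psmd8 included, and the next largest such gap among the members was 0.50, for Psmd2. The mean difference of -1.71 ± 1.37 did not pass (adjusted p = 0.814, limma) and was 0.43 without KO replicate 1. KO replicate 1 was also the array with exocrine pancreas genes, whose summed intensity was 5460 there and 271 to 434 elsewhere. The part of those genes in the Psmd8 value was not tested.

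Psmd14, the deubiquitinase itself, read 7.57 and 7.28 in WT and 7.55 and 7.43 in KO, a difference of 0.07 with overlapping groups. Psmd7, its catalytically inactive partner, read 9.75 and 9.76 in WT and 10.05 and 9.78 in KO, a difference of 0.16, and its second probe gave 0.18. For both Psmd7 probes the KO values lay above the WT values. Neither passed. The scaffold subunits Psmd12 and Psmd13 were each at -0.08. Both probes of Psmd6 were dim, detected on 1 array or none. Over the 6 lid genes tested the median difference was -0.083.

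**Figure D2:**
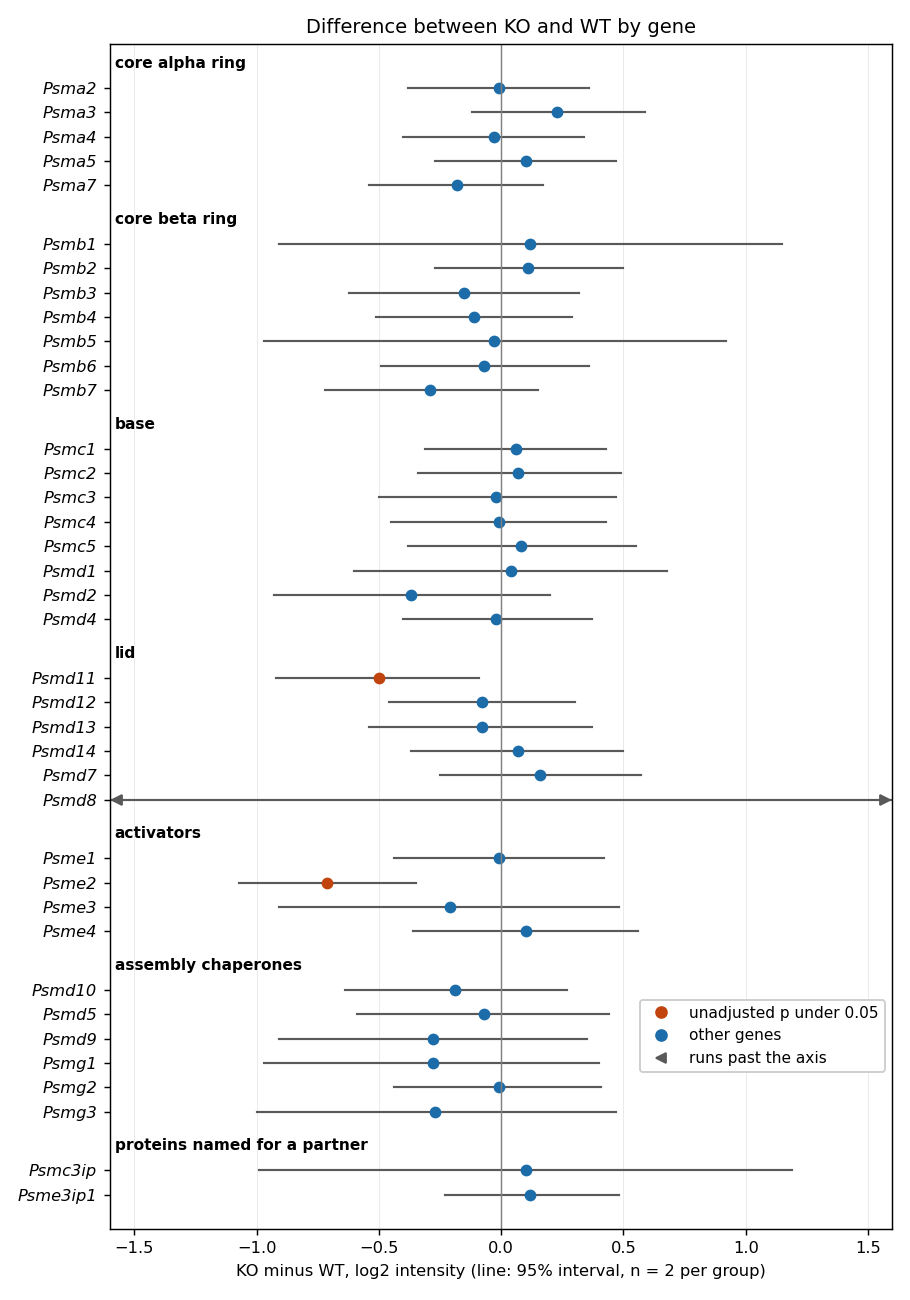
KO minus WT difference of each tested proteasome gene on the log2 scale with its 95% interval, by role. The intervals of Psme2 (-1.07 to -0.35) and Psmd11 (-0.92 to -0.09) are the 2 that leave out 0, and that of Psmd8 (-5.23 to 1.81) runs past both ends of the axis, as does its mean past the left end.

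Among the activators Psme2 was lower on both KO arrays and its partner Psme1 was not. The products of Psme1 and Psme2, both on chromosome 14, assemble together into the ring of PA28, which interferon-gamma induces. Psme2 read 8.45 and 8.36 in WT and 7.73 and 7.67 in KO. The replicates of Psme2 differed by less than 0.1 within each group, and the groups did not overlap. The difference was -0.71 ± 0.14 (log2, SE, n = 2 per group), 1.63-fold lower in KO, with a 95% interval from -1.07 to -0.35. The unadjusted p of 0.00396 was the smallest among the members, and the adjusted p was 0.771 (limma). Leaving out each array in turn gave Psme2 differences of -0.75 to -0.66, and the deposited value table gave -0.54. The 1 Psme2 probe leaves no second measurement.

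Psme1 read 11.91 and 12.19 in WT and 12.11 and 11.97 in KO, with a difference of -0.01 and a 95% interval from -0.44 to 0.42. Its groups overlapped, as did those of its second probe, which gave -0.10. Whether the differences of Psme1 and Psme2 themselves differ was not tested. Psme3, whose product forms the nuclear PA28 gamma ring, read 10.62 and 9.88 in WT and 9.98 and 10.08 in KO. WT replicate 1 alone was high for Psme3, and without it the difference turned from -0.21 to 0.16. Psme4, which encodes PA200, was at 0.10, and its dim second probe at -0.04. Over the 4 activators the median difference was -0.112, or -0.337 without WT replicate 2 and 0.004 without WT replicate 1. The inhibitor Psmf1 was not analysed here.

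The promoters of both PA28 genes are shown because their products work as one complex and Psme2 had the smallest p of the members. Each runs 5′ to 3′ from 250 bases before to 50 bases after a RefSeq start site (GRCm38.p6). Psme1 lies at chr14:55578244-55578543 on the plus strand and Psme2 at chr14:55591052-55591351 on the minus strand, and capitals mark a match to GAAA, 2 bases of any kind and GAAA again, the core of the interferon-stimulated response element, on either strand.
Psme1: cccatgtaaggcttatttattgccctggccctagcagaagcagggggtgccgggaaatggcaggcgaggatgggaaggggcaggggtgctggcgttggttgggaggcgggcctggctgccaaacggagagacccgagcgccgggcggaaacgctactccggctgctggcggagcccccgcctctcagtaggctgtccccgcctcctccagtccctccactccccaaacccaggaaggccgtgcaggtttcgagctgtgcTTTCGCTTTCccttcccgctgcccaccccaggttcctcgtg
Psme2: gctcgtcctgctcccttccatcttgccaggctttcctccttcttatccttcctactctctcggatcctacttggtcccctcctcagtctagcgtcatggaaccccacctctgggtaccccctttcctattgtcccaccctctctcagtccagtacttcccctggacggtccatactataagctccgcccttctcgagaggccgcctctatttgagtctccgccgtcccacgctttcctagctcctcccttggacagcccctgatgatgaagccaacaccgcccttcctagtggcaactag
The Psme1 window held 1 match, on the minus strand of the window and just inside the transcript, and the Psme2 window held none of these letters, nor did a second RefSeq window of Psme2 that overlaps it. Of the 40 windows that RefSeq gives for 36 of the 42 genes, 4 (10%) held a match, those of Psmb3, Psmd4, Psmd9 and Psme1, against 3.44% of all 32851 windows of the same length. Of those 4 genes, the differences between KO and WT were -0.15, -0.02, -0.28 and -0.01 on the log2 scale, and none passed.

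The immunoproteasome subunits take the place of the catalytic beta subunits in immune cells. Psmb8, the counterpart of Psmb5, read 8.61 and 8.83 in WT and 8.23 and 8.34 in KO (-0.43 ± 0.16, log2, SE, n = 2 per group, unadjusted p = 0.0410, adjusted p = 0.771, limma), with KO values below both WT values. Psmb9 read 10.71 and 10.72 in WT and 10.82 and 10.54 in KO, and Psmb10 read 11.40 and 11.55 in WT and 11.58 and 11.57 in KO, with differences of -0.04 and 0.10. A second Psmb10 probe gave -0.02 with overlapping groups. Psmb8, like Psme2, thus lay below both WT values on both KO arrays, as did 17.6% of all genes tested. Whether the difference of Psmb8 differs from those of Psmb9 and Psmb10 was not tested. Among markers of cells that carry these genes, T cell genes were at a median of -0.25 (4 genes) and B cell genes at -0.22 (3 genes), with summed T cell intensities of 5330 and 6490 in WT and 5320 and 4630 in KO and B cell intensities of 9930 and 12700 in WT and 8460 and 11600 in KO. The B cell sums overlapped between the groups. The part of these cells in the values of Psme2 and Psmb8 was not tested, nor was that of the mesothelium and liver genes, whose sums were ordered by group.

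**Figure D3:**
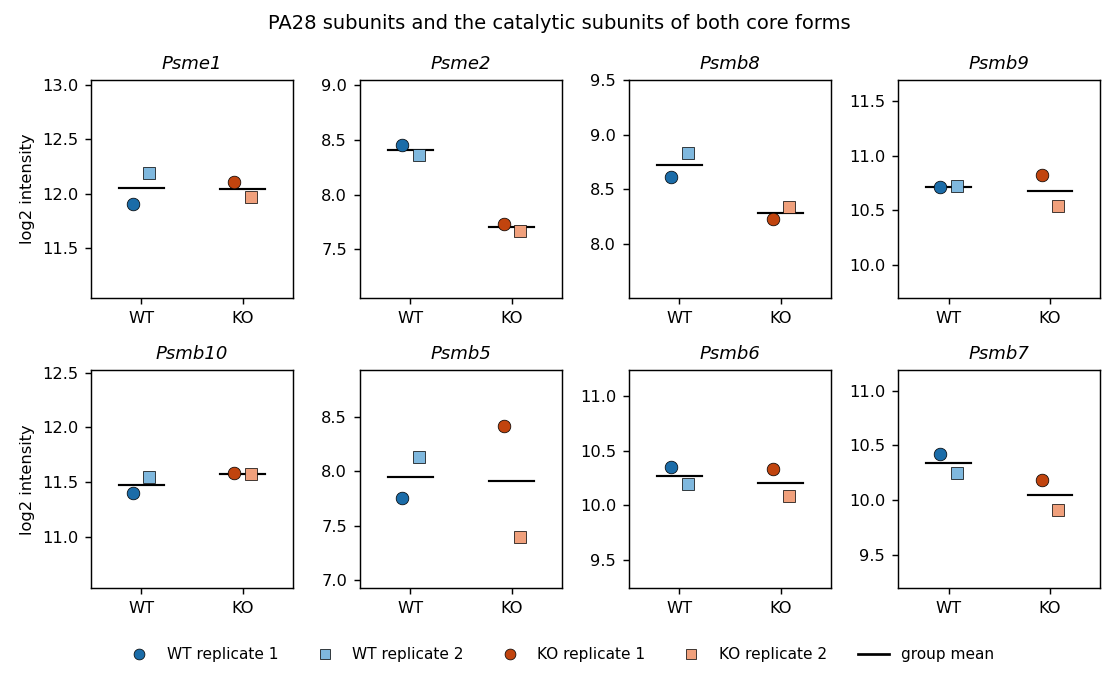
Normalized log2 intensity in WT and KO for the PA28 subunits, the immunoproteasome subunits and the catalytic subunits of the constitutive core, with points for arrays and a line for the group mean. Each panel spans the same range of 2 log2 units around the gene's own mean. Psme2 (8.41 in WT, 7.70 in KO) and Psmb8 (8.72 and 8.29) are lower on both KO arrays, as is Psmb7. At the probe shown Psmb10 is slightly higher on both, and Psme1, Psmb9, Psmb5 and Psmb6 overlap.

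All 6 assembly chaperones had lower means in KO, and the groups of all 6 overlapped at their brightest probe. These proteins bind subunits before the particle is complete. Psmg1, Psmg2 and Psmg3 guide the alpha ring, and Psmd5, Psmd9 and Psmd10 guide the ATPases of the base. The median difference was -0.226 and the median within-group SD 0.28, the largest of the 6 classes. Psmg1 read 8.12 and 7.66 in WT and 7.89 and 7.32 in KO, a difference of -0.28 ± 0.27 (adjusted p = 0.853, limma). Psmg3, at 8.64 and 8.14 in WT and 8.44 and 7.81 in KO, had the same order of arrays. Psmg2, which binds Psmg1, read 9.69 and 9.64 in WT and 9.80 and 9.50 in KO, a difference of -0.01. Psmd9 was dim, at 5.60 and 4.96 in WT and 4.97 and 5.03 in KO, detected on 3 of 4 arrays, and only WT replicate 1 stood higher. Psmd10 (gankyrin) was at -0.19, with other probes at -0.06 and, with groups that did not overlap, -0.30, and Psmd5 at -0.07. The median of the chaperones was -0.019 when WT replicate 1 was left out, -0.026 when KO replicate 2 was, and -0.407 when WT replicate 2 was.

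The genes named for a partner gave no difference that passed. Psmc3ip, which encodes the recombination protein HOP2, read 8.27 and 7.11 in WT and 8.06 and 7.52 in KO. Each group held 1 high and 1 low array, and the difference of 0.10 had a 95% interval from -0.99 to 1.19. Psme3ip1, whose product binds the nuclear PA28 gamma, read 9.48 and 9.52 in WT and 9.60 and 9.64 in KO (0.12), with KO values above both WT values. Its second probe gave 0.08, also without overlap.

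Many proteasome genes lay high or low on the same arrays, in an order that did not follow genotype. For 22 of the 38 genes replicate 1 read higher than replicate 2 in both WT and KO, where 24.1% of all genes did. For 3 of the 38 genes replicate 2 read higher in both, beside 3013 of all 8716 genes. The order of the replicate numbers has no meaning of its own, so this describes only the 4 arrays. In the core replicate 1 read higher in both groups for 9 of 12 genes, in the base and lid for 7 of 14, in the chaperones for 4 of 6 and in the activators for 1 of 4. The lowest of the 4 values lay on KO replicate 2 for 16 of the 38 genes, where 21.4% of all genes had their lowest value there. It lay on WT replicate 2 for 12 of the 38 genes, beside 1967 of all 8716 genes. The median deviation of the 38 genes from their own 4-array mean was 0.109 on WT replicate 1, -0.032 on WT replicate 2, 0.066 on KO replicate 1 and -0.100 on KO replicate 2. Over all genes it was -0.030, 0.022, 0.005 and 0.010.

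Genes of dividing cells also differed between arrays of one genotype. Their summed intensity was lowest on WT replicate 2, and replicate 1 was above replicate 2 in both groups. The 4 proliferation markers on the array, Top2a, Cdk1, Birc5 and Mcm5, were detected on every array, with summed intensities of 6550 and 2190 in WT and 5500 and 3690 in KO. Birc5, which encodes survivin, read 11.02 and 8.74 in WT and 10.50 and 10.03 in KO, and Psmc3ip, which is not a proteasome subunit, followed the same order of arrays. By summed intensity the plasma cell, neutrophil and red pulp macrophage lists were ordered by group, while the B cell and erythroid lists were not. For the T cell list WT replicate 1 (5330) and KO replicate 1 (5320) were nearly level. The red pulp macrophage sums were 20600 and 20500 in WT and 26000 and 22400 in KO, with a median difference of -0.03 over the 4 genes tested. The tested plasma cell genes, Xbp1 and Mzb1, had a median difference of 0.50, and the 7 neutrophil genes one of -1.59. The part of any of these cells in the proteasome values was not tested.

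**Figure D4:**
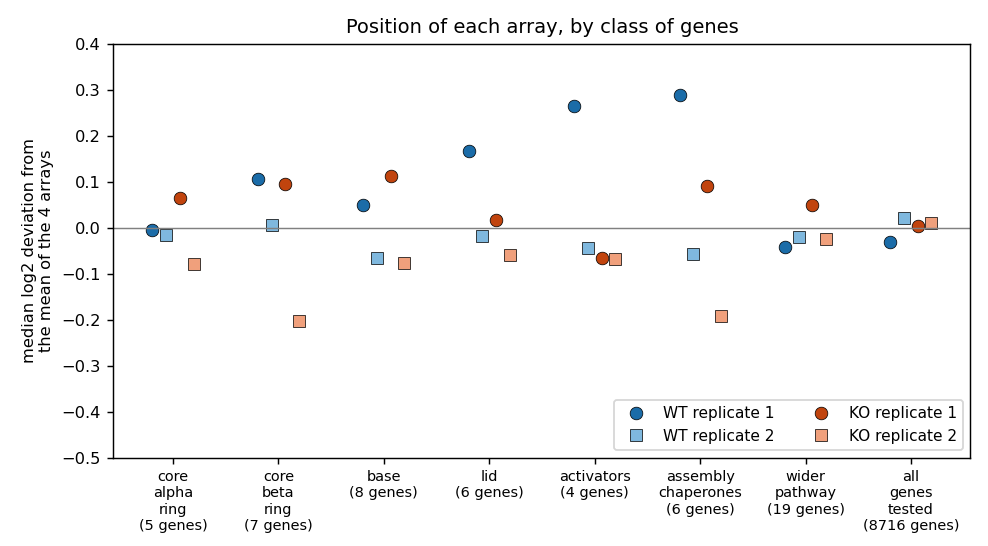
Median deviation of the tested genes of each class from their mean over the 4 arrays, on the log2 scale, for each array. All 6 classes lie lowest on KO replicate 2 (-0.203 in the beta ring, -0.191 in the chaperones), whereas the median of all genes stays within 0.03 of 0 on every array.

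Outside the particle itself, 23 genes of a list of 35 that assemble, feed or control the proteasome were on the array, the immunoproteasome subunits among them. Of these 19 were tested, 10 higher and 9 lower, and 0 passed (limma), with 0 higher and 2 lower at an unadjusted p under 0.05, beside 3.49% and 2.51% of all genes. Their median difference was 0.019. The WT and KO values did not overlap for 12 of the 19 (63.2%), 8 higher and 4 lower, against 38.2% of all genes. The 2 lower genes were Psmb8, given above, and Ubqln4, which carries ubiquitinated proteins to the proteasome. Ubqln4 read 7.78 and 7.65 in WT and 7.23 and 7.24 in KO (-0.48 ± 0.14, log2, SE, n = 2 per group, unadjusted p = 0.0193, adjusted p = 0.771, limma). Its groups did not overlap. Its relative Ubqln1 was at 0.16, with other probes at 0.19 and -0.13, and the shuttle factor Rad23b was at -0.15. Groups were also without overlap for Rad23b and for the Ubqln1 probes at 0.16 and -0.13. Fbxo7, an F-box protein that binds the proteasome inhibitor PI31, read 7.25 and 6.17 in WT and 6.53 and 4.65 in KO, where KO replicate 2 was not above background. Without KO replicate 2 its difference was -0.18, and it did not pass (adjusted p = 0.771, limma). The largest positive difference was that of Ecpas, a scaffold that holds the core and the regulatory particle together, at 8.11 and 8.06 in WT and 8.35 and 8.49 in KO (0.34 ± 0.14, adjusted p = 0.771, limma). Usp14, which trims ubiquitin chains at the base, read 5.03 and 5.08 in WT and 5.11 and 5.61 in KO. The lid component Sem1 (0.16), the core maturation factor Pomp (0.02) and the ATPase Vcp (0.14) did not pass either.

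Nfe2l1, the transcription factor that raises proteasome genes when proteasome activity falls, read 10.02 and 10.08 in WT and 10.17 and 10.16 in KO, a difference of 0.12 with an adjusted p of 0.9 (limma). Its relative Nfe2l2 read 7.20 and 7.63 in WT and 7.08 and 7.15 in KO (-0.30). Both bind antioxidant response elements. The core letters TGACNNNGC, on either strand, were in 6 of the 40 windows (15.0%), against 12.4% of all windows. The sites are shown for the 5 of those genes that were tested, as 30 bases in the direction of the gene with the match in capitals. Psmb5 is at chr14:54618024-54618053 (minus), Psmb6 at chr11:70525337-70525366 (plus), Psmd9 at chr5:123228148-123228177 (plus), Psmd12 at chr11:107479278-107479307 (plus) and Psme4 at chr11:30771757-30771786 (plus).
Psmb5: acgtgaagttgTGACGTCGCggcgttgcca
Psmb6: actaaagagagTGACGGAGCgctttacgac
Psmd9: tatctagccggTGACCCCGCccacttccaa
Psmd12: tctGCTGTGTCAcatttgcccccctcagac
Psme4: gcgctgcggctGCAGCGTCAccagaagagc
The 5 genes differed between KO and WT by -0.03, -0.07, -0.28, -0.08 and 0.10 on the log2 scale, in the order shown, all with overlapping groups. The CCAAT box, CCAAT on either strand, was in 14 of the 40 windows (35.0%), against 37.4% of all windows.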

How the data were processed

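The authors exported probe intensity values on a linear scale from Illumina GenomeStudio and deposited them without normalization or background subtraction. The deposited detection columns hold a fraction, headed as a p-value, that rises with brightness (rank correlation with the signal 0.975 to 0.991) and were read as 1 minus p. The deposited value table holds log2 intensities, quantile normalized by the authors without background correction, as found from the values. It differed from such values by over 1e-06 for 1 probe.

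Here signals were corrected with normexp using detection p-values (neqc, offset 16) and quantile normalized (limma 3.58.1, R 4.3.3). Probes detected at p under 0.05 on both arrays of a group, 12493 of 25697, were fitted with lmFit and eBayes, unpaired and two-sided with 5.04 total degrees of freedom, and p-values were adjusted over all of them by Benjamini-Hochberg. The methods call the samples biological duplicates. An exact permutation test of 2 against 2 cannot go below 0.333. Each gene was represented by its brightest tested probe. Symbols came from GEO's platform annotation (23978 probes with 1 symbol, 0 with several, 1719 unnamed here). Values on all arrays were given for members with an unadjusted p under 0.05, the 2 largest and the smallest difference of each class, and by a like rule for the wider pathway. Others named were taken from the lists. Members, lists and motifs were chosen with earlier results of these data known. No source used here gives slide or scan batches. The fit was tested on simulated data with the same spread for every probe and no shifts between arrays, unlike the values here. The number of arrays limits the precision.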

Additional observations from a re-analysis of the deposited data

How the results depend on the processing

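No proteasome gene passed the adjusted threshold under any alternative run (smallest adjusted p 0.497), and no gene of the wider pathway list did under those run for it, which leave out averaging over probes. The number of all probes past it, 2 as reported, was 0 without background correction, with the deposited value table, without a filter, with the unmoderated test and with the replicate block, 4 with an offset of 50, and 0 to 16 when each array was left out in turn. The replicate numbers name no stated pairs. The deviations of same-numbered arrays correlated at 0.188 across tested probes, and with the replicate number as a block 0 proteasome genes passed. With each array left out in turn, the median over the 38 genes ran from -0.137 to 0.060, that of the activators from -0.337 to 0.004 and that of the wider pathway list from -0.039 to 0.108. With median scaling, which put the median of all genes at 0.045, Psma2 (0.02), Psmb5 (0.02), Psmc4 (0.02), Psme1 (0.03) and Psmg2 (0.03) changed sign. Leaving out arrays changed the sign of 12 named genes, with ranges of -0.08 to 0.06 for Psma2, -0.54 to 0.48 for Psmb5, -0.17 to 0.15 for Psmc4, -0.08 to 0.25 for Psmc5, -3.84 to 0.43 for Psmd8, -0.08 to 0.22 for Psmd14, -0.60 to 0.05 for Psmd9, -0.15 to 0.13 for Psme1, -0.59 to 0.16 for Psme3, -0.16 to 0.13 for Psmg2, -0.48 to 0.68 for Psmc3ip and -0.17 to 0.10 for Psmb9. Snd1 passed without WT replicate 1 (fitted difference -2.58, adjusted p = 0.0379, limma), where the fitted size is no measured level because neither KO array was above background. Where 1 array of a group was left, it was taken to vary like the other group. Probes near background understate changes.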
